A study of Mus musculus with 4 samples.

Results

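The 10 heat shock protein genes described here were taken as a list of names: the HSP70 genes Hspa1a, Hspa1b and Hspa8, the HSP90 genes Hsp90aa1 and Hsp90ab1, the HSP110 gene Hsph1, the HSP40 gene Dnajb1, the small heat shock protein gene Hspb1, and the mitochondrial chaperonin genes Hspd1 and Hspe1. Every probe set of the array annotated to 1 of these symbols alone was used. This gave 22 of the 45101 probe sets, for 9 of the 10 genes, out of 18193 genes that have a probe set of their own. Hsp90ab1 was not analysed here. All 9 genes passed the filter on low signals by their brightest probe set, among 12485 genes tested, and 20 of the 22 probe sets passed on their own.

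Heat shock proteins are molecular chaperones. They bind unfolded or newly made polypeptides and help them to fold, assemble or be degraded, in several families with the use of ATP. In mammals the transcription factor HSF1 binds heat shock elements, inverted repeats of the bases GAA and TTC, and raises the transcription of many chaperone genes when cells meet heat, oxidants or other agents that unfold proteins. Several members of these families are also made all the time, because growing cells fold a large amount of new protein, and mouse embryonic stem (ES) cells are known for a high basal content of chaperones.

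The samples were 4 cultures of E14.1 mouse ES cells with 1 array each: Sall4 delta/- cells (line KO1, labelled null) on feeders, Sall4 flox/- cells (line HET18, heterozygous or HET) on feeders, cells labelled null without feeders and HET cells without feeders. Sall4 encodes a zinc finger transcription factor of ES cells. Both lines also carried a blasticidin-resistance gene (BSD) behind an IRES, brought in with a targeting vector made from Oct3/4 genomic regions, and all 4 cultures had LIF and blasticidin in the medium. Feeders were blasticidin-resistant mouse embryonic fibroblasts, and the cultures without them stood on gelatin. Each genotype was 1 line, so genotype and line cannot be told apart, and with 1 array per group no spread within a group was measured.

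Values are MAS5 signals, linear array intensities set by the authors' software to a common mean. The median signal was 18 and 17.1 on the null and HET arrays on feeders, and 17 and 16.1 on the null and HET arrays without feeders. The brightest Sall4 probe set read 1452 and 781 on the null and HET arrays on feeders and 1671 and 1127 on those without, higher on the arrays labelled null. Where it lies relative to the deletion is not given in the sources used here, so the labels alone give each genotype difference its direction. Pou5f1, the gene of Oct3/4, read 977 to 1284 on the 4 arrays. Of 10 ES cell markers 1, Lin28a, was called lower on feeders by limma, while 8 had fitted feeder differences above 0, and the median was 0.16. None was called for genotype by limma, but 9 of the 10 had fitted genotype differences below 0, with a median of -0.19. The lowest was Fgf4 at -1.76 (SE 0.17, limma adjusted p = 0.0839). An unadjusted limma p under 0.05 for genotype was found for 5 of the 10, against 1535 of the 12485 genes tested. Of 19 fibroblast markers tested, 17 rose on feeders. Their summed signal was 30444 and 22913 on the null and HET arrays on feeders and 11780 and 5592 on the null and HET arrays without feeders. Col1a1, a fibroblast collagen gene, read 36 on the null array without feeders and 1.5 on the HET one. Of the macrophage and blood markers 4 of 8 passed the filter and 1, Lyz2, rose on feeders.

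The promoters of the inducible HSP70 pair and of the mitochondrial pair are shown because the members of each pair lie side by side in the genome and had feeder differences of the same sign. Of the mitochondrial pair the Hspe1 window is given, which covers most of one Hspd1 window. The windows are from RefSeq on build GRCm38.p6, from 250 bases before to 50 bases after the annotated start, 5′ to 3′ on the gene's strand. Capitals mark 2 neighbouring heat shock units, GAANNTTC or TTCNNGAA. Hspa1a lies at chr17:34972107-34972406 on the minus strand, Hspa1b at chr17:34959189-34959488 on the minus strand, and Hspe1 at chr1:55087898-55088197 on the plus strand.
Hspa1a: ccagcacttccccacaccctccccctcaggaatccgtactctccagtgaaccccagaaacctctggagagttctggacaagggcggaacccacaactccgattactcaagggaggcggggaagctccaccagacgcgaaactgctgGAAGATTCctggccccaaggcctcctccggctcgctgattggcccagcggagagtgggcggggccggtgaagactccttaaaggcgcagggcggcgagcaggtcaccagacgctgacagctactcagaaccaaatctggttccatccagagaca
Hspa1b: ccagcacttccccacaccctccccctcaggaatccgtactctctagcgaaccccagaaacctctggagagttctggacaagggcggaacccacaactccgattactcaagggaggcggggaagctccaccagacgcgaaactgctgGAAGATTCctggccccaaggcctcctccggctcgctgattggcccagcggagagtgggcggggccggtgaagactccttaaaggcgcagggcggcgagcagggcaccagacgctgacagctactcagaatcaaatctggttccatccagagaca
Hspe1: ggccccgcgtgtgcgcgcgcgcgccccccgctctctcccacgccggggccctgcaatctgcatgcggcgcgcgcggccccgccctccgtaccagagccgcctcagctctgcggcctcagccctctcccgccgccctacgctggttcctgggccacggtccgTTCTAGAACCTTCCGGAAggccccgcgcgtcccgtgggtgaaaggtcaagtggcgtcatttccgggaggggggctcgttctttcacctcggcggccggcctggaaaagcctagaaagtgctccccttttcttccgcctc

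The Hspa1a and Hspa1b windows differed at 4 of 300 positions, C44T, T47C, T249G and C276T, counted from 1 at the 5′ end with the base of Hspa1a first. Both held a single match, GAAGATTC, which began 104 bases before the start. No other gene is annotated between the pair in the RefSeq table. The Hspe1 window shared 285 bases, on opposite strands, with the second of 2 Hspd1 windows. The run of capitals in the Hspe1 window holds 3 overlapping pair motifs and 2 matches to a motif of 3 units, which is GAANNTTC followed by NNGAA, and the second Hspd1 window also held 3 pair motifs. No other gene is annotated between Hspd1 and Hspe1.

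Motifs were searched on both strands, and matches to the different motifs could overlap. Promoter windows were found for 7 members. A pair of units was present for 6 of the 7 and the motif of 3 units for 3 of the 7, Hsph1, Hspd1 and Hspe1. Counted by window, 7 of 10 held a pair of units and 4 of 10 the motif of 3 units. The stretch shared by Hspd1 and Hspe1 was counted for both. The 2 Hsph1 windows also overlap and held the same matches, which were counted in both. Over all 32851 windows of the same length, 15.1% held a pair of units and 0.603% the motif of 3 units. Hspb1 had 2 pair motifs, and neither Dnajb1 window held one. A match is a run of letters only.

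The first comparison asked whether the presence of feeders went with a difference in chaperone RNA. Hspa1a and Hspa1b, which encode the stress-inducible cytosolic HSP70, had higher signals on feeders in both genotypes. By brightest probe set the fitted differences of the other 7, inducible and constitutive alike, lay between -0.24 and -0.01. Their other probe sets that passed the filter ran from -0.50 (Hspa8 1431182_at) to 0.07 (Hsph1 1423566_a_at). None of the 9 genes passed the limma test over all genes. An unadjusted limma p under 0.05 was found for 3 of 9 (Hspa1a, Hspa1b and Hspa8), against 2725 of the 12485 genes tested. Of the 9 genes 1, Hspa1a, differed at least 2-fold between a pair of arrays. The background was 4.77% of genes called by limma for feeders, and 8.6% and 9.44% of genes at least 2-fold apart in cells labelled null and in HET cells, so the members' share of 1 in 9 in HET cells and 0 in 9 in cells labelled null is near it. In these cultures fewer cells of a type and less RNA per cell cannot be told apart, and RNA on the arrays with feeders comes from ES cells and fibroblasts together.

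Hspa1a, read by its single probe set 1452388_at, had signals of 84.5 in cells labelled null and 114 in HET cells on feeders, against 47.4 in cells labelled null and 44.8 in HET cells without feeders. Both signals on feeders lay above both without. The change was 1.71-fold in cells labelled null and 2.41-fold in HET cells, after an offset of 4.6 was added to each signal. The fitted log2 difference was 1.02 (SE 0.22, 95% interval 0.47 to 1.57, limma adjusted p = 0.0663 over all genes). When every probe set was tested on its own, the same probe set had an adjusted p of 0.048.

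Hspa1b was read by 3 probe sets, and in all of them both signals on feeders were higher than the signal of the same genotype without feeders. The brightest, 1452318_a_at, read 433 in cells labelled null and 410 in HET cells on feeders, against 290 in cells labelled null and 350 in HET cells without. Its fitted log2 difference was 0.40 (SE 0.16, 95% interval 0.0016 to 0.79, limma adjusted p = 0.227). Probe set 1427127_x_at had 204 and 275 on feeders in cells labelled null and HET cells, against 137 and 171 without, and 1427126_at had 133 and 165 on feeders against 105 and 139 without. The fitted log2 differences of these were 0.62 (SE 0.17) and 0.28 (SE 0.18). The sizes of the 3 thus ran from 0.28 to 0.62. Hspa1a and Hspa1b are near-identical copies, so a probe set named for one may also bind RNA of the other.

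Markers of the feeder cells and immediate-early genes stood as follows beside this difference. Fibroblast markers had a median log2 difference of 3.19 in cells labelled null and 3.90 in HET cells, larger than that of either HSP70 gene. Immediate-early genes, which respond to serum and handling within minutes, had a median of -0.56 in cells labelled null and 1.40 in HET cells. In HET cells 13 of 14 were higher on feeders and in cells labelled null 6 of 14 were. Egr1 read 353 in cells labelled null and 1853 in HET cells on feeders, against 309 in cells labelled null and 199 in HET cells without. The Hspa1a signal was also highest on the HET array on feeders, and in cells labelled null it was 1.71-fold higher on feeders. Hspa1b probe sets 1427127_x_at and 1427126_at were highest on the HET array on feeders too. The brightest, 1452318_a_at, was highest on the null array on feeders. The part of feeder RNA or of the immediate-early response in these signals was not tested.

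**Figure D1:**
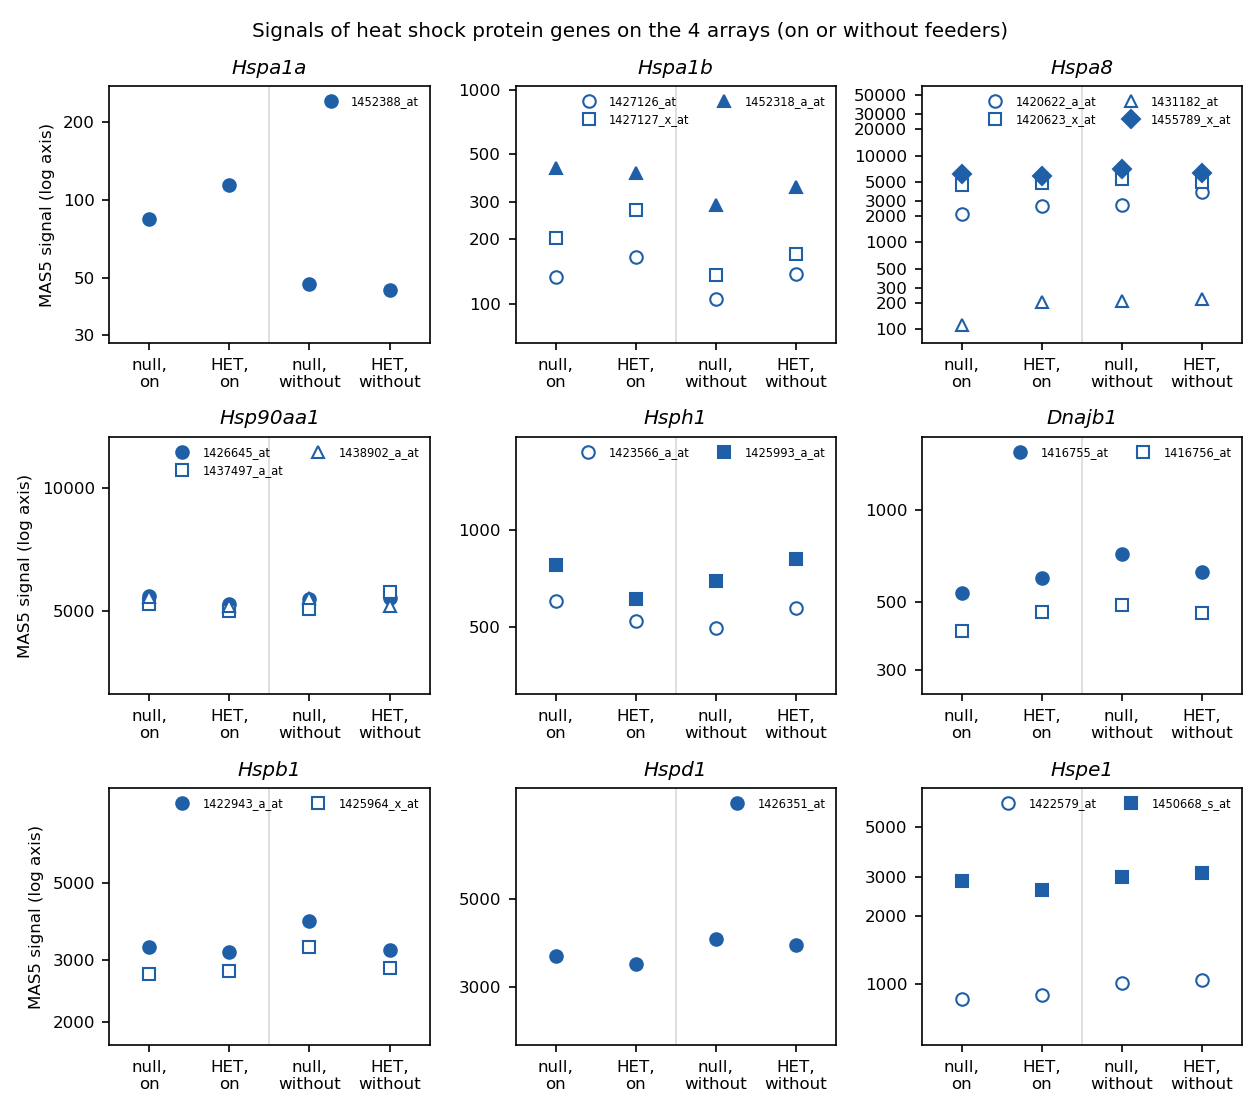
MAS5 signals (log axis, range set per gene) of the 20 probe sets that passed the filter, by gene; each point is 1 array, cells labelled null and HET cells on feeders at the left and without feeders at the right. Filled points are the brightest probe set of a gene. Hspa1a read 84.5 and 114 on feeders against 47.4 and 44.8 without, while the 3 probe sets of Hsp90aa1 stayed between 5012 and 5573.

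Hspa8 encodes HSC70, the constitutive cytosolic partner of the inducible pair, which also drives the uncoating of clathrin vesicles. Its brightest probe set, 1455789_x_at, read 6132 in cells labelled null and 5796 in HET cells on feeders, against 7021 in cells labelled null and 6309 in HET cells without. All signals with feeders lay below all those without. The fitted log2 difference was -0.16 (SE 0.05, 95% interval -0.29 to -0.03), with a limma adjusted p of 0.171. The other 3 probe sets were also lower on feeders, by different amounts. Probe set 1420622_a_at read 2121 and 2631 on feeders in cells labelled null and HET cells, against 2686 and 3830 without, and 1420623_x_at read 4576 and 4807 on feeders against 5370 and 4984 without. In the test of every probe set 1420622_a_at fell by 0.44 on the log2 scale (SE 0.09, adjusted p = 0.0343). It and the Hspa1a probe set were the 2 of 20 member probe sets called there for feeders, beside 5.89% of all 22986 probe sets. Probe set 1431182_at read 112 in cells labelled null and 205 in HET cells on feeders, against 211 and 222 without, a fitted difference of -0.50 (SE 0.23). The 4 probe sets thus gave one direction and unequal sizes. By the array maker's naming, the suffix a marks a probe set shared by transcripts of the same gene, and s and x mark probe sets that can bind RNA of other genes.

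Hsp90aa1 encodes the inducible cytosolic form of HSP90, which matures kinases and steroid receptors. Its brightest probe set, 1426645_at, read 5443 in cells labelled null and 5202 in HET cells on feeders, against 5354 in cells labelled null and 5379 in HET cells without. The largest difference between any 2 of the 4 arrays was 1.05-fold. Of the genes tested, dim ones included, 0.352% had a smaller range. The fitted log2 difference was -0.01 (SE 0.06, 95% interval -0.15 to 0.13). Probe sets 1438902_a_at and 1437497_a_at stayed between 5012 and 5573. The remaining 2, 1433251_at and 1441827_x_at, read 0.8 to 16.1 and did not pass the filter. The brightest probe set of any kind read 8144 and 7616 on the null and HET arrays on feeders and 8192 and 7475 on those without.

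HSP110, the product of Hsph1, exchanges nucleotide on HSP70. The brighter Hsph1 probe set, 1425993_a_at, read 780 in cells labelled null and 609 in HET cells on feeders, against 692 in cells labelled null and 812 in HET cells without. The HET signal was lower on feeders and the null signal higher, so the groups overlapped. In the other probe set, 1423566_a_at, the HET signal was also lower on feeders and the null signal higher, with 601 in cells labelled null and 520 in HET cells on feeders, against 493 and 573 without, and the fitted difference was 0.07 (SE 0.15). The fitted log2 difference of the brighter was -0.12 (SE 0.17, 95% interval -0.54 to 0.30).

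Dnajb1, an HSP40 gene, encodes a J-domain protein that loads clients onto HSP70. Its brighter probe set, 1416755_at, read 535 in cells labelled null and 600 in HET cells on feeders, against 720 in cells labelled null and 627 in HET cells without. Both signals on feeders lay below both without, with a fitted log2 difference of -0.24 (SE 0.14, 95% interval -0.60 to 0.11, limma adjusted p = 0.383). In the other probe set, 1416756_at, the HET signals were 463 on feeders and 461 without, so the groups overlapped.

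Hspb1 encodes HSP25, a small heat shock protein that holds unfolded proteins and binds actin filaments. Its brighter probe set, 1422943_a_at, read 3273 in cells labelled null and 3182 in HET cells on feeders, against 3886 in cells labelled null and 3221 in HET cells without. The null signal on feeders lay between the 2 signals without, so the groups overlapped. In the other probe set, 1425964_x_at, both signals on feeders lay below both without. It read 2754 in cells labelled null and 2791 in HET cells on feeders, against 3287 and 2858 without. The highest signal was that of cells labelled null without feeders, in both Hspb1 probe sets. The fitted log2 difference of the brighter was -0.13 (SE 0.08, 95% interval -0.34 to 0.07), and that of the other was -0.14 (SE 0.09).

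Hspd1 and Hspe1 encode HSP60 and HSP10, the barrel and the lid of the chaperonin in the mitochondrial matrix. Hspd1 read 3597 in cells labelled null and 3428 in HET cells on feeders, against 3978 and 3830 without. The brighter Hspe1 probe set, 1450668_s_at, read 2866 in cells labelled null and 2619 in HET cells on feeders, against 2999 and 3100 without, and 1422579_at read 854 and 890 on feeders against 1006 and 1039 without. For both genes every signal on feeders was below every signal without. The fitted log2 differences were -0.15 for Hspd1 (SE 0.06, 95% interval -0.31 to 0.01) and -0.15 for Hspe1 (SE 0.08, 95% interval -0.35 to 0.04), with limma adjusted p-values of 0.243 and 0.324.

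Over the 9 genes the median fitted feeder difference was -0.13 on the log2 scale, with 2 genes above 0 and 7 below. Over all genes tested the median was 0.03, with 6723 above 0 and 5762 below. After quantile normalization the members' median was -0.07 and after median centring -0.20, with 2 genes above 0 each time.

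**Figure D2:**
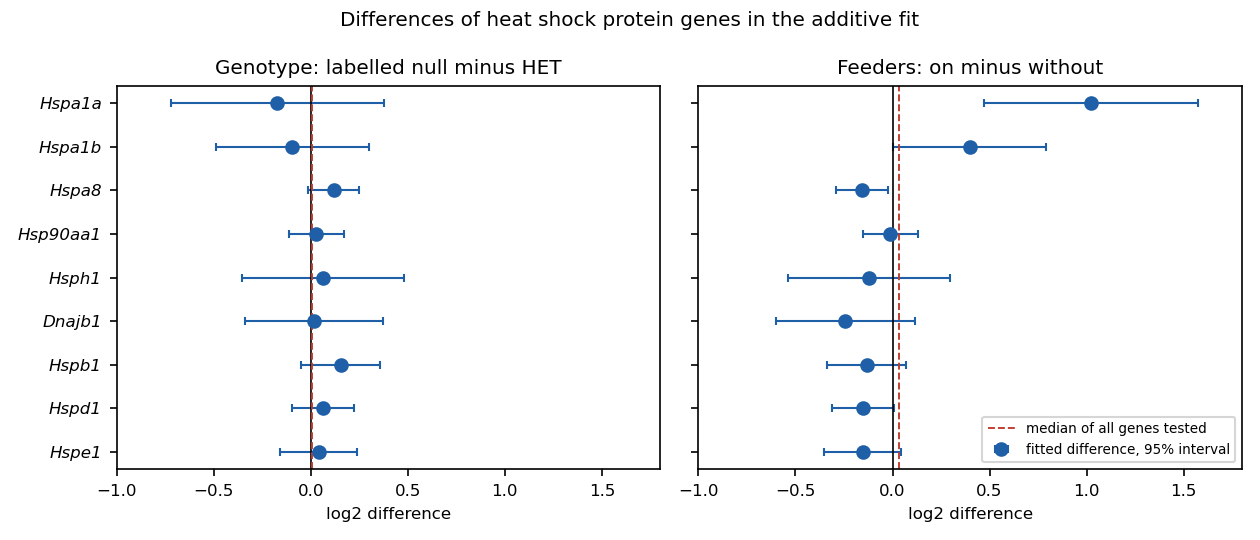
Fitted log2 differences of the 9 genes, labelled null minus HET (left) and on feeders minus without (right), with 95% intervals from the additive limma fit; the dashed line is the median of all genes tested. The interval of Hspa1a for feeders runs from 0.47 to 1.57, while the interval of each gene for genotype includes 0.

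The second comparison asked whether cells labelled Sall4-null differed from HET cells in chaperone RNA. No member passed the test. By brightest probe set the fitted log2 differences ran from -0.17 for Hspa1a to 0.16 for Hspb1, and the members' smallest limma adjusted p was 0.457, for Hspa8. By limma 0.032% of all genes were called, and 3.44% and 6.75% of genes were at least 2-fold apart on feeders and without, so 0 of 9 is near the background. No member had an unadjusted limma p under 0.05, against 1535 of the 12485 genes tested. In the test of every probe set 0 of 20 member probe sets were called for genotype by limma, beside 0.0609% of all probe sets.

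By brightest probe set the inducible HSP70 genes had the lowest fitted values, and their pairs of arrays did not all go one way. Hspa8 probe sets 1431182_at, at -0.46 (SE 0.23), and 1420622_a_at, at -0.41 (SE 0.09), lay below every probe set of the inducible genes. Hspa8 probe sets 1420623_x_at and 1455789_x_at had 0.02 and 0.12. Hspa1a had a log2 difference of -0.42 on feeders, at 84.5 in cells labelled null and 114 in HET cells, and of 0.07 without feeders, at 47.4 in cells labelled null and 44.8 in HET cells. Its interval, from -0.72 to 0.38, was the widest of the 9 genes. For Hspa1b, probe sets 1427127_x_at and 1427126_at were lower in cells labelled null in both conditions, with fitted log2 differences of -0.37 (SE 0.17) and -0.34 (SE 0.18). Probe set 1452318_a_at had 0.08 on feeders and -0.27 without.

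Hspb1 had the highest fitted value, 0.16 (SE 0.08, 95% interval -0.05 to 0.36). It was 1.03-fold higher in cells labelled null on feeders and 1.21-fold higher without. Hsph1 was 1.28-fold higher on feeders, while without feeders its signal was 692 in cells labelled null and 812 in HET cells, a log2 difference of -0.23. Dnajb1 had 535 in cells labelled null against 600 in HET cells on feeders and 720 against 627 without, so its 2 differences also had opposite signs. The intervals of Hspa8, Hsp90aa1, Hspd1 and Hspe1 lay between -0.16 and 0.25. For Hspa8 the brightest probe set gave 0.12 (SE 0.05) and 1420622_a_at -0.41 (SE 0.09, adjusted p = 0.169), so the sign depended on the probe set.

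Across the 9 genes the median fitted genotype difference was 0.04, against 0.01 over all genes. Median centring brought the members' median to -0.02 and the number above 0 to 4 of 9, from 7 of 9 as deposited, so no common direction of the members holds under both scalings. The range over the 4 arrays had a median of 0.29 on the log2 scale in the members. It was 0.59 over all genes tested, dim ones included. This median range was 0.28 in the cochaperones, 0.30 in housekeeping genes and 0.17 in the TRiC subunits of the cytosolic chaperonin. By each gene's brightest probe set, the largest difference between any 2 arrays was 2.41-fold for Hspa1a and 1.48-fold for Hspa1b, and 1.34-fold or less for the other 7. Other probe sets had wider ranges. Hspa8 1431182_at ran from 112 (null on feeders) to 222 (HET without), and Hspa8 1420622_a_at from 2121 (null on feeders) to 3830 (HET without). Hspa1b 1427127_x_at ran from 137 (null without) to 275 (HET on feeders). Between arrays of the same genotype, 1431182_at was 1.86-fold lower on feeders in cells labelled null. By the same measure 1427127_x_at was 1.6-fold higher on feeders in HET cells.

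The wider chaperone system was read through lists of other genes. The cytosolic chaperonin TRiC, a ring of different subunits that folds actin and tubulin, had 0 of 8 subunits called in either comparison, and the median log2 range over the arrays was 0.17. Its feeder differences were negative for 7 of 8 subunits, with a median of -0.08 and the lowest value, -0.22, at Cct3. Among 17 HSP70 and HSP90 cochaperones the medians were -0.01 for feeders and 0.00 for genotype, and none was called. The FK506-binding protein genes Fkbp5 and Fkbp4, whose products dock on HSP90, had genotype differences of -0.56 (SE 0.17) and -0.40 (SE 0.11). Bag3, which links HSP70 to autophagy and is a known HSF1 target, had 131 in cells labelled null and 106 in HET cells on feeders, against 132 and 55.9 without, a genotype difference of 0.73 (SE 0.26, adjusted p = 0.362).

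The heat shock factor gene Hsf2 was dim, at 18.2 in cells labelled null and 13.5 in HET cells on feeders and 14.9 and 9.1 without. Of the heat shock factors and their regulators 4 of 6 were tested and 0 were called. Hsf1 was not analysed here. Of the other HSP70 and HSP110 genes 9 of 11 passed the filter, and none was called in either comparison. Hspa9, the mitochondrial HSP70, had a feeder difference of 0.27 (SE 0.10) and a genotype difference of -0.21 (SE 0.10). In the list of mitochondrial chaperones and proteases that includes it, 7 of 8 genotype differences were negative, with a median of -0.25. Trap1, the mitochondrial HSP90, had -0.44 (SE 0.14), at 542 in cells labelled null and 816 in HET cells on feeders and 577 and 705 without. Hspd1 and Hspe1 of the same compartment had 0.06 and 0.04. None of the 8 passed the genotype test.

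Of 13 chaperones of the endoplasmic reticulum, a compartment with its own stress response, 1 fell on feeders and 0 rose by limma. Pdia4, a protein disulphide isomerase gene, read 61.4 in cells labelled null and 38 in HET cells on feeders, against 124 in cells labelled null and 113 in HET cells without, and fell by 1.21 on the log2 scale (SE 0.22, adjusted p = 0.0421). Hyou1, which encodes the HSP110 of that compartment, had -0.74 (SE 0.17, adjusted p = 0.0721), and Hspa5, its HSP70, had -0.26 (SE 0.07, adjusted p = 0.12). Serpinh1, the collagen chaperone HSP47 made by fibroblasts, had 1419 in cells labelled null and 1020 in HET cells on feeders, against 1066 in cells labelled null and 432 in HET cells without. Its feeder difference was 0.82 (SE 0.20, adjusted p = 0.0903).

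Of 8 small heat shock protein genes other than Hspb1, 4 passed the filter, and their median log2 range over the arrays was 1.22. Without feeders all 4 were higher in cells labelled null, with a median difference of 1.01, and on feeders 1 of 4 was, with a median of -0.17. Cryab, which encodes alpha-B crystallin, read 274 in cells labelled null and 199 in HET cells on feeders, against 290 and 129 without. Hspb8, the partner of Bag3, read 163 in cells labelled null and 182 in HET cells on feeders, against 224 and 94 without. Neither passed the genotype test, with limma adjusted p-values of 0.263 and 0.582. Fibroblast markers were also higher in cells labelled null without feeders, with a median difference of 1.18, while on feeders their median was 0.47 with 19 of 19 above 0. Their part was not tested. The HSP40 gene Dnajb4 had 228 in cells labelled null and 394 in HET cells on feeders, against 125 and 31.9 without. Its feeder difference of 2.15 (SE 0.57, adjusted p = 0.104) was the largest among 12 other HSP40 genes, of which 0 were called in either comparison and whose median feeder difference was -0.01.

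Of 13 other stress-inducible genes, which respond to oxidants, DNA damage or unfolded protein, 0 were called in either comparison by limma. Ddit3, the stress-induced factor CHOP, read 189 in cells labelled null and 112 in HET cells on feeders, against 87.2 and 61.4 without, a feeder difference of 0.95 (SE 0.19, adjusted p = 0.0529). Hmox1, the haem oxygenase gene, had 158 in cells labelled null and 261 in HET cells on feeders, against 182 and 287 without, a genotype difference of -0.67 (SE 0.16, adjusted p = 0.228). Of 9 housekeeping genes 1, B2m, rose on feeders, and the median feeder difference was -0.01. Of 14 immediate-early genes 1, Myc, fell on feeders.

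**Figure D3:**
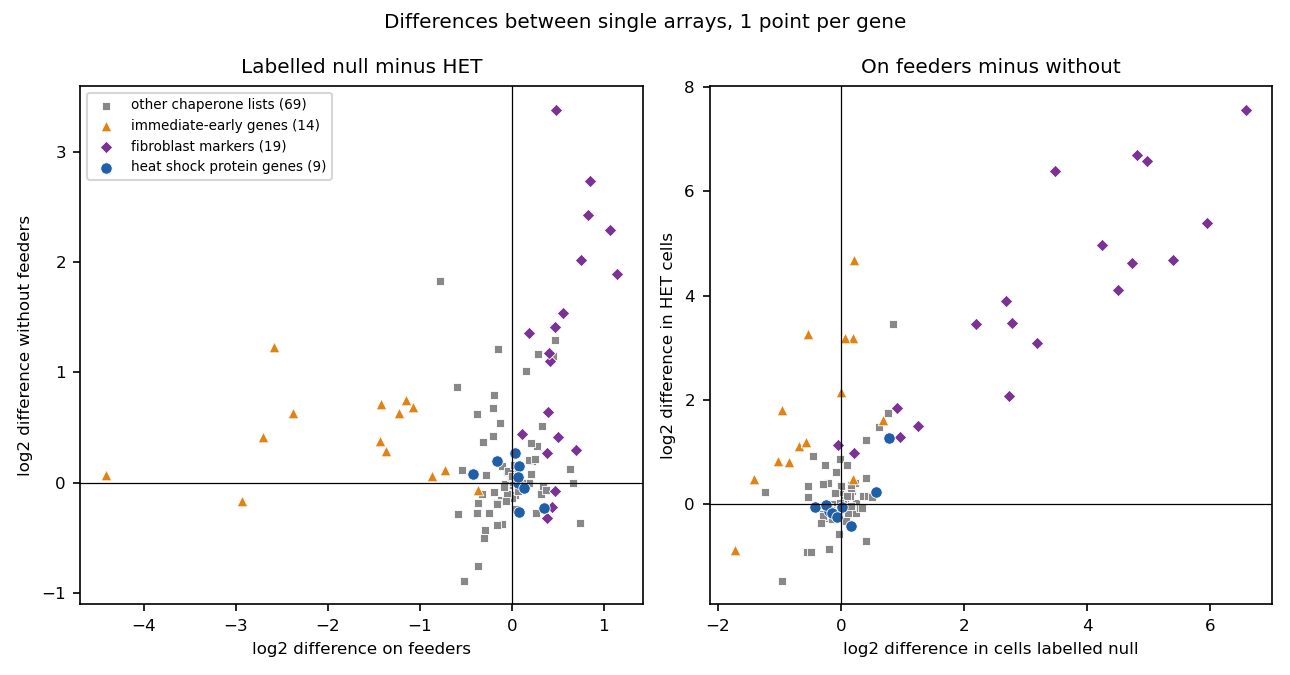
Log2 differences between single arrays, 1 point per tested gene of the lists: labelled null minus HET (left, on feeders along x and without along y) and on feeders minus without (right, cells labelled null along x and HET cells along y). On the right Hspa1a lies at 0.78 and 1.27 and Hspa1b at 0.57 and 0.23, the other heat shock protein genes lie between -0.42 and 0.17, while fibroblast markers have medians of 3.19 and 3.90 there.

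**Figure D4:**
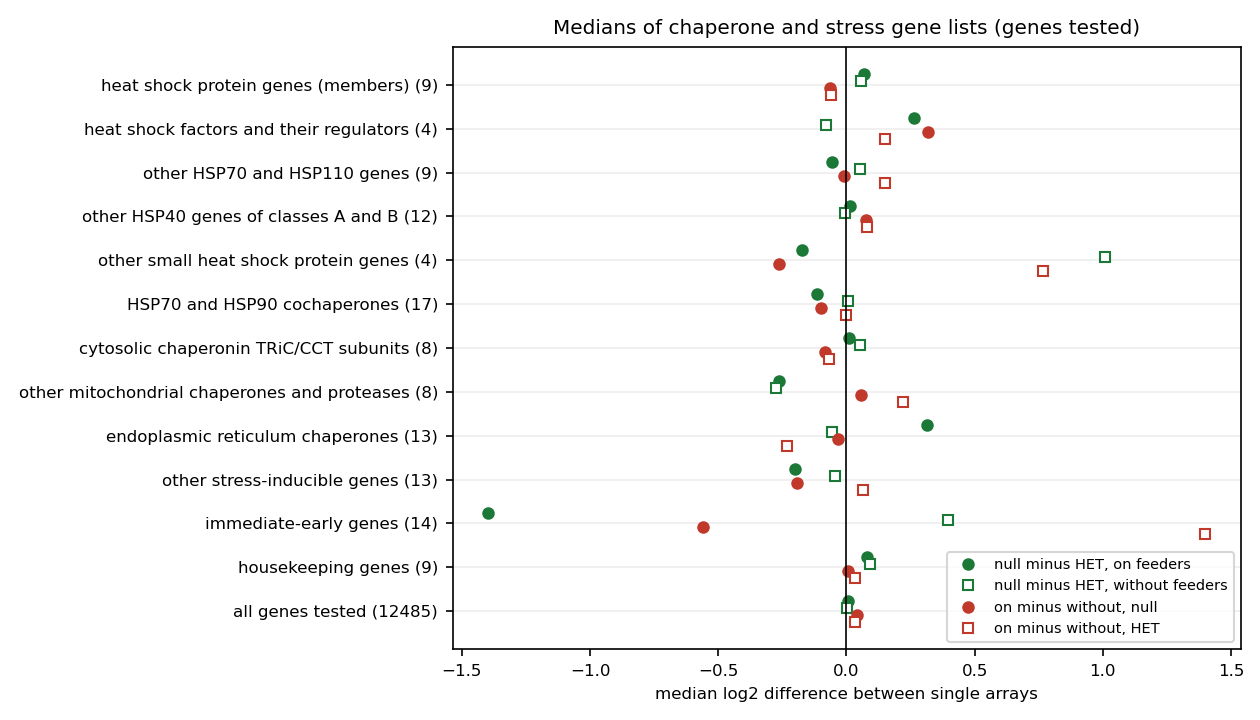
Median log2 differences of gene lists (genes tested in brackets) between single arrays, for the 2 genotype pairs (green) and the 2 feeder pairs (red). The heat shock protein genes lie between -0.07 and 0.07 in all 4 pairs, and the other small heat shock protein genes reach 1.01 for genotype without feeders.

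By brightest probe set, Hspa1a had both the largest feeder difference and the largest genotype difference in size among the members. The 5 other genes with the most like profile of log2 values over the 4 arrays, by the root mean square distance after centring, were Pon3, Ppp1r12b, P4ha2, Ccdc122 and Otub2, at 0.02 to 0.05. P4ha2, a collagen prolyl hydroxylase gene, read 134 in cells labelled null and 188 in HET cells on feeders, against 73.3 and 69.5 without. With 4 arrays many genes share such a profile, and the distance is a description only.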

How the data were processed

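Total RNA of 4 ES cell cultures was labelled with biotin and read on 1 Affymetrix array each, per the labels' protocols. The values are the authors' deposited MAS5 signals, linear array intensities, per the submitters' processing notes, which give no version; detection calls were not used here. The 2% trimmed mean was 100 on every array, so no further scaling was done. Of 45101 probe sets 64 controls were left out; 34945 had 1 symbol in GEO's platform table, 932 several and 9160 none listed, and only the first were used.

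Signals were turned into log2(signal + 4.6), the 25th percentile of all signals, which draws folds of weak signals towards 1. Each gene took the values of its brightest probe set on average, and those below the 40th percentile (a signal of 9.46) were left out. limma 3.58.1 in R 4.3.3 was fitted over all 12485 genes with a genotype and a feeder term (lmFit, eBayes with a variance trend), two-sided, with Benjamini-Hochberg adjustment and a threshold of 0.05. Only 1 residual degree of freedom, the interaction of genotype and feeders, and 4.75 prior degrees set the errors and 95% intervals. They do not measure the spread of repeated cultures. A pair of single arrays counted as apart at 2-fold, with the brighter signal above 17.1. Each array enters both comparisons. The code of the fit was run on simulated data with the same noise for every gene and large planted genotype differences. That run checks the code and not the errors given here. Promoter windows came from RefSeq (GRCm38.p6).

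The members and lists were chosen with earlier results of these data known. Named genes were all members, called genes of the other lists, up to 4 of each list with the largest fitted difference in each comparison, and the 5 genes closest in profile to the member with the largest difference.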

Additional observations from a re-analysis of the deposited data

Results flagged for a closer look

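Among the members and the named genes of the chaperone lists, a gene is given here where its differences had opposite signs in the 2 conditions of the other factor, each at least 1.2-fold. None of the 9 members met this. The difference between the 2 conditions was not tested, as each rests on 1 array per group, and is given on the log2 scale as labelled null minus HET on feeders minus the same without feeders. Dnajb4 had -2.60, with a genotype difference of -0.78 on feeders and 1.83 without. Hspb2, a small heat shock protein gene of muscle, had -1.46, from -0.59 on feeders and 0.87 without. Bag2, an HSP70 cochaperone gene, had -1.01, from -0.38 and 0.62. Hspb8 had -1.36, with a feeder difference of -0.45 in cells labelled null and 0.92 in HET cells. The heat shock factor gene Hsf4 had 1.11, with a genotype difference of 0.75 on feeders and -0.37 without and a feeder difference of 0.41 in cells labelled null and -0.70 in HET cells, at signals of 14.7 in cells labelled null and 6.9 in HET cells on feeders and 9.9 and 14.1 without, close to the filter.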

How the results depend on the processing

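Feeder differences of Hspa1a ran from 0.81 to 1.23 over its 15 alternatives and those of Hspa1b from 0.26 to 0.53, never below 0. Hspa1a passed the threshold (adjusted p = 0.048) when every probe set was tested, where 2 members were called, and in none of the others. Of the members' fitted values under all alternatives, 242 kept their sign and their side of the threshold, 1 passed it and 23 turned sign. Genotype differences turned sign for Hsp90aa1 with quantile normalization (-0.054) and median centring (-0.031); with median centring also for Dnajb1 (-0.043) and Hspe1 (-0.019); with the mean of probe sets for Hspa8 (-0.18), Dnajb1 (-0.021) and Hspe1 (-0.0060); and without probe sets of suffix x, s or a for Hspa8 (-0.46) and Hspe1 (-0.053). Leaving out each array in turn, the genotype difference ran from -0.80 to 0.46 for Hspa1a, -0.38 to 0.19 for Hspa1b, -0.14 to 0.27 for Hsph1, -0.19 to 0.23 for Dnajb1, -0.018 to 0.14 for Hspd1 and -0.080 to 0.16 for Hspe1, and the feeder difference from -0.045 to 0.020 for Hsp90aa1, -0.30 to 0.057 for Hsph1 and -0.27 to 0.0026 for Hspb1. The sign of Hspa1a for genotype turned without the HET array on feeders and without the null array without feeders. These fits with 1 array left out had 1 factor. Each genotype difference there thus also holds part of the feeder difference, and each feeder difference part of the genotype difference. Genes called for genotype, 4 as reported, were 7 with quantile normalization or median centring, 14 with every probe set, and 0 by limma with no filter, a stricter filter (60th percentile), eBayes without the trend or 1 factor. Genes called for feeders, 595 as reported, were 269 with no filter, 268 with the 60th percentile, 1354 with every probe set, 384 with the mean of probe sets, 183 with no variance trend and 231 with 1 factor. Leaving out 1 array needed the model with 1 factor and gave 0 for genotype and 23 to 534 for feeders (23 without the null array on feeders, 46 without the HET array on feeders, 313 without the HET array without feeders). Genes at least 2-fold apart, 429 and 843 for genotype on feeders and without and 1074 and 1179 for feeders in cells labelled null and HET cells, became 211, 462, 681 and 783 with the offset at the median signal, 225, 534, 639 and 741 with the 60th percentile, and 745, 1383, 1934 and 2177 with every probe set. A 1.5-fold threshold gave 1530, 2277, 2605 and 2908, and a 3-fold threshold 111, 240, 426 and 522. No paired analysis was possible because the labels give no replicate numbers and each group has 1 array; the additive fit already holds the other factor as a term, and the fit with 1 factor is the one without it. Having 4 arrays in all limits how precise these values are.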
